A study of Mus musculus with 8 samples.

Results

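The genes described here are 42 interferon-stimulated and RNA-sensing genes of the mouse, taken by symbol from the raw counts of Septin9-deficient and control muscle progenitors, out of 42391 gene entries. All 42 symbols were found, and entries that the counts name as a further copy of a gene were not taken as members. They fall into 6 RNA sensors, 6 transcription factors, 4 genes of the ISG15 system, 13 antiviral effectors, 4 genes of the PARP group, 5 genes of antigen presentation and 4 interferon-inducible GTPases.

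Cells read double-stranded or otherwise foreign RNA through receptors in the cytosol and in endosomes, which switch on interferon genes. Secreted interferon then acts through its receptors, Janus kinases and transcription factors that bind a short promoter element and raise a broad set of antiviral genes. Short interfering RNAs delivered with cationic lipids are a known trigger of these receptors in some cells, and muscle progenitors are able to answer interferon.

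C2C12, a mouse myoblast line from the ATCC, and primary myoblasts (pMb), isolated from hindlimb muscle of 5 weeks old mice and pre-plated on collagen to remove fibroblasts, were transfected with Lipofectamine and either a non-targeting siRNA (control, genotype WT in the labels) or a Septin9 siRNA (Septin9-deficient, Septin 9 KD). C2C12 cells received 50 nM siRNA (100 nM over the initial 5 h) and were collected 60 h after transfection, the last 12 h in differentiation medium. Primary myoblasts were grown in proliferation medium on Matrigel with added FGF, chicken embryo extract and more serum, and were collected 48 h after transfection (their siRNA dose is not given in the labels). Each of the 4 groups had 2 replicates, from independent experiments by the study's methods, so that control and Septin9-deficient cells of one number form a pair. The number of mice behind the primary myoblasts is not given in the sources used here. There was no untransfected sample, so a response to the transfection itself and the resting level of these genes cannot be told apart. The study lists a lone Septin9 siRNA sequence, so loss of Septin9 and a response to that sequence cannot be told apart either.

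PolyA RNA was sequenced in bulk, and the samples held 20898611 to 27223414 counted reads. In bulk RNA, fewer cells of a type and less RNA per cell cannot be told apart. Septin9 itself was counted 8995 and 11825 times in C2C12 cells under the control siRNA and 3151 and 4430 times after depletion, a log2 fold change of -1.36 ± 0.08 (SE). For primary myoblasts, 8742 and 12716 reads stood against 4645 and 3331 after depletion, and the fold change was -1.21 ± 0.15. The muscle genes Myod1, Des and Cdh15 were detected in every sample. In primary myoblasts the 2 experiments stood apart: the 6 fibroblast markers summed to 8.64 and 7.03 CPM (counts scaled to sequencing depth) in replicate 1 (control and Septin9-deficient) and to 303 and 441 CPM in replicate 2. In C2C12 cells this sum was 115 to 140 CPM, most of it from Col1a1 (97.6 to 127 CPM). The 12 markers of macrophages and other leukocytes summed to 5.53 to 9.88 CPM in every sample, with the defining markers Ptprc, Adgre1, Tyrobp and C1qa at no more than 1 read in any of them. Others on that list were counted in primary myoblasts: Itgam had 7 to 43 reads (0 in C2C12 cells), Cd68 19 to 55 and Csf1r 6 to 14.

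Levels of the 42 genes were low to moderate in these cells. In control cells, the mean level was above 10 CPM for 18 genes in C2C12 cells and for 12 in primary myoblasts. 24 genes were above 1 CPM in every sample, and 3 (Usp18, Ifi44 and Nlrc5, a regulator of class I genes) were below 1 CPM in every sample. Usp18, which removes ISG15 from proteins, had 1 to 7 counted reads per sample, and Ifi44 had 1 to 6. Per length of transcript, B2m, the light chain of MHC class I, was highest, at 193 RPKM (CPM per kilobase of exons) in control C2C12 cells and 143 in control primary myoblasts. Ifi27, a small membrane protein, followed in C2C12 cells with 61.6 RPKM, ahead of the class I heavy chains H2-K1 with 48.0 and H2-D1 with 41.9. In primary myoblasts H2-D1 (21.3 RPKM), H2-K1 (16.8) and Irf3 (16.1), the factor that RNA sensors activate, were next to B2m. Low levels were seen for Ifit1 with 0.14, Ifit3 with 0.10 and Cmpk2 with 0.01 RPKM in control C2C12 cells, whereas Ifit2, of the same family as Ifit1 and Ifit3, stood at 4.47 RPKM. Ifit1, Ifit3 and Cmpk2 stood at 1.05, 0.85 and 0.29 RPKM in control primary myoblasts. The heat map of all members by sample shows these ranges.

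**Figure D1:**
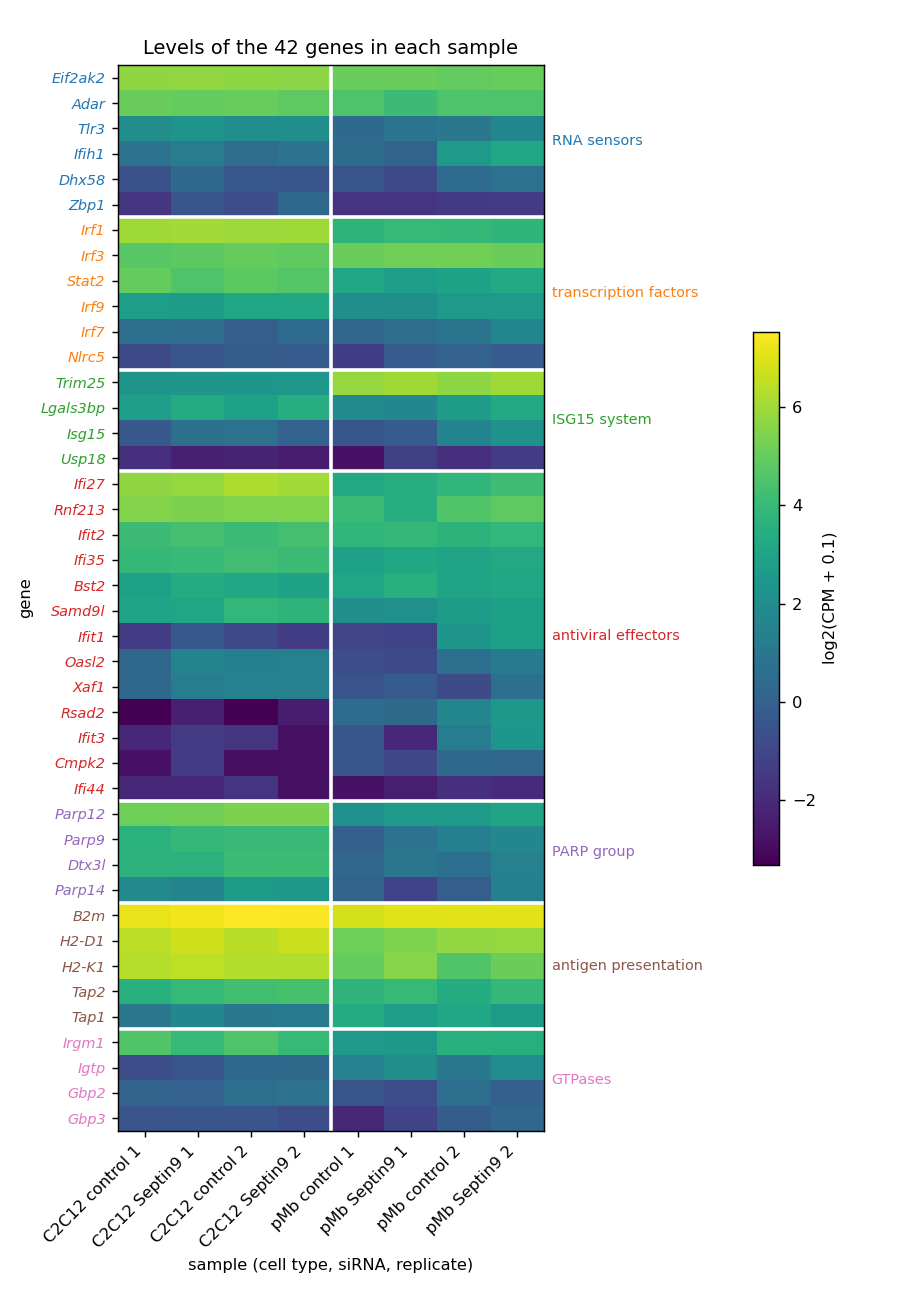
Heat map of log2(CPM + 0.1) for each of the 42 genes (rows, grouped by role and coloured by it) in each of the 8 samples (columns, C2C12 cells on the left and primary myoblasts on the right). B2m, H2-D1 and H2-K1 are bright in every sample, the PARP group is brighter in C2C12 cells, and Ifit1, Ifit3, Ifih1 and Isg15 are brighter in replicate 2 of the primary myoblasts than in replicate 1.

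Control primary myoblasts and control C2C12 cells differed most often in the PARP group (4 of 4 called), in antigen presentation (3 of 5) and among antiviral effectors (6 of 12 tested). In the other 4 role groups, 1 or 2 members each were called, 25% to 40% of those tested. Usp18, Ifi44 and Zbp1 did not pass the filter on low counts. Of the 39 other members, 19 passed the test (adjusted p-value under 0.05 and at least a 1.5-fold change), which is 48.7% beside 33.3% of all 17103 genes tested. 5 members were higher in primary myoblasts (17.5% of all genes were) and 14 were lower (15.8% of all genes were). Of the higher ones, Rsad2, Cmpk2 and Ifit3 passed the filter through primary myoblasts alone, so they could only be called as higher there. Trim25 and Tap1, also higher, are uncertain because of their further copies. The counts by direction are therefore a description and no test. The cells differ together in origin, medium, differentiation and time after transfection, and these cannot be told apart. Whether the siRNA dose differed as well is not known, since that of the primary myoblasts is not given in the labels. With either C2C12 control left out most of these calls were lost, in fits where the lone sample is assumed to vary like the others. The share of all genes that passed in those fits was not counted, so this loss may not be particular to the members. The median log2 fold change of the members was -0.48, beside 0.01 for all genes tested.

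All 4 genes of the PARP group, which interferon induces together and which join ADP-ribose or ubiquitin to proteins, were lower in primary myoblasts. Parp12, an RNA-binding mono-ADP-ribosyltransferase, stood at 35.1 and 41.9 CPM in control C2C12 cells and at 4.30 and 5.91 CPM in control primary myoblasts. Its log2 fold change was -2.90 ± 0.24 (SE, adjusted p = 0.00449). Dtx3l, a ubiquitin ligase that pairs with Parp9, stood at 12.5 and 17.3 CPM against 1.12 and 1.45 CPM, a fold change of -3.52 ± 0.32 (adjusted p = 0.00494). Parp9 went from 12.1 and 16.2 CPM to 0.90 and 2.45 CPM, and fell by 3.06 on the log2 scale (SE 0.53). Parp14 stood at 3.32 and 5.89 CPM against 0.99 and 0.89 CPM, a fold change of -2.28 ± 0.42. The values of the 2 cell types did not overlap for any of the 4 genes, as was so for 75.1% of all genes tested. Parp9 and Dtx3l lie head to head and share 367 exonic bases on opposite strands, and since the sources used here do not say that strand was used in counting, reads of that stretch cannot be assigned to one of them.

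Among the antiviral effectors, the direction was mixed. Ifi27 stood at 53.0 and 73.3 CPM in control C2C12 cells and at 9.37 and 14.1 CPM in control primary myoblasts, a log2 fold change of -2.42 ± 0.29 (adjusted p = 0.00767). Rnf213, a giant ubiquitin ligase, and Ifi35 were also lower, by a log2 fold change of -1.13 ± 0.21 and -1.12 ± 0.22. Rsad2, which encodes the antiviral enzyme viperin, had 0 reads in both control C2C12 samples and 30 and 86 reads in control primary myoblasts. Set against a floor of 3 reads in each C2C12 sample, its mean of 2.24 CPM was at least 18.2-fold higher. Cmpk2, its neighbour on chromosome 12, which encodes a mitochondrial nucleotide kinase, had 1 read in each control C2C12 sample and 15 and 33 reads in control primary myoblasts, a ratio of 23.5 with a 95% exact interval of 6.16 to 200 for counting error alone. Ifit3, a partner of the RNA-binding protein Ifit1, had 3 and 6 reads against 15 and 62 reads, a fold change of 3.01 ± 0.82 (adjusted p = 0.0456). Without replicate 2 of the control primary myoblasts its fold change was 1.80 (adjusted p = 0.165).

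Of the 6 transcription factors, Irf1 and Stat2 were lower in primary myoblasts. Irf1, which also answers interferon gamma, stood at 63.5 and 62.1 CPM in control C2C12 cells and at 13.4 and 14.8 CPM in control primary myoblasts, a log2 fold change of -2.14 ± 0.15. Stat2, a subunit of the factor that type I interferon activates, stood at 31.3 and 27.7 CPM against 8.76 and 7.73 CPM. Irf3 was measured at 25.9 and 31.8 CPM in C2C12 cells and at 33.3 and 37.3 CPM in primary myoblasts, and did not pass. Among the RNA sensors, Tlr3, the endosomal receptor for double-stranded RNA, was lower, with 4.10 and 4.12 CPM against 1.20 and 1.90 CPM. Eif2ak2, the kinase PKR that stops translation on double-stranded RNA, was lower by a log2 fold change of -0.71 ± 0.14. With a replicate block neither passed (adjusted p = 0.0635 for Tlr3 and 0.0541 for Eif2ak2), and Eif2ak2 did not pass with any 1 control sample left out. The class I heavy chains H2-K1 and H2-D1 were lower too, by -1.51 ± 0.19 and -0.96 ± 0.24, as was the GTPase Irgm1, by -1.43 ± 0.38. B2m differed by -0.42 ± 0.19 (adjusted p = 0.141).

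Trim25 and Tap1 went the other way, and both are held by the counts as several copies. Trim25, the ubiquitin ligase that acts on the sensor RIG-I, stood at 4.87 and 5.15 CPM in control C2C12 cells and at 57.5 and 52.3 CPM in control primary myoblasts, a log2 fold change of 3.46 ± 0.17 (adjusted p = 0.00225). Its further copy had 575 and 767 reads in control C2C12 cells and 298 and 290 in control primary myoblasts, a fold change of -1.20 ± 0.19 (adjusted p = 0.0125). The 2 entries of the gene thus moved in opposite directions. Tap1, a subunit of the peptide transporter that loads class I molecules, stood at 1.91 and 1.91 CPM against 10.3 and 8.70 CPM, a fold change of 2.32 ± 0.26, whereas the second of its further copies differed by 0.47 ± 0.29 (adjusted p = 0.260). Levels of both genes are therefore uncertain.

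**Figure D2:**
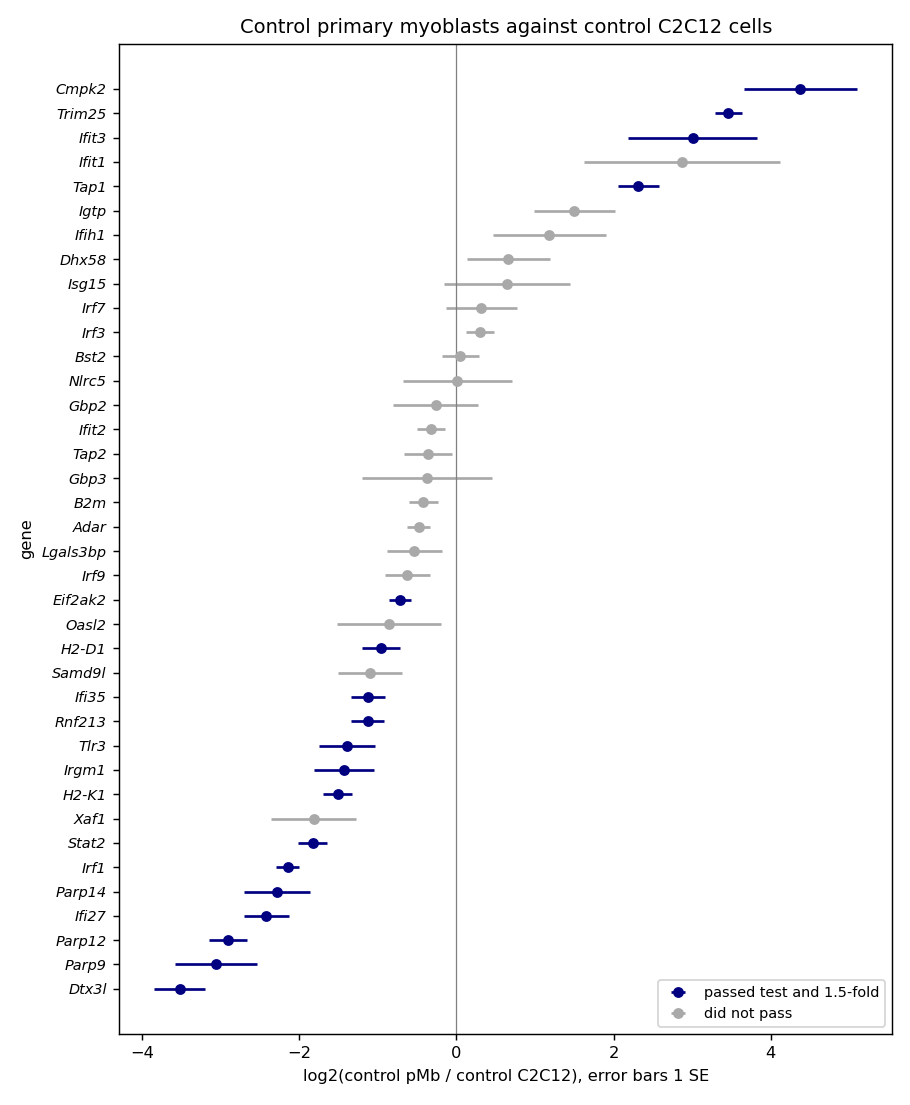
Log2 fold change of control primary myoblasts over control C2C12 cells (horizontal axis, error bars 1 SE) for the members tested, other than Rsad2, ordered by value. Blue points passed the test with at least a 1.5-fold change: the 4 genes of the PARP group lie between -3.52 and -2.28, while Trim25 and Cmpk2 lie at 3.46 and 4.38.

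In C2C12 cells, 2 of the 37 members tested passed after the Septin9 siRNA: Irgm1 fell and Lgals3bp rose. That is 5.41% of the members beside 1.57% of all 15814 genes tested. Irgm1 (chr11:48865245-48871420, GRCm38.p6), a GTPase that interferon gamma induces and that acts on vacuoles of intracellular pathogens, stood at 23.9 and 23.7 CPM under the control siRNA and at 15.4 and 15.5 CPM after depletion. Its log2 fold change was -0.63 ± 0.09 (SE, adjusted p = 0.000285), and the pairs gave -0.63 and -0.62. The spread within each group was far below the gap between them. The 3 further copies of Irgm1 in the counts passed as well, with fold changes between -0.70 and -0.67. In primary myoblasts, Irgm1 stood at 5.67 and 11.9 CPM against 5.42 and 11.1 CPM after depletion, and its fold change was -0.08 ± 0.17. The difference of the Septin9 effect between the cell types was 0.54 ± 0.16 (unadjusted p = 0.0082 and adjusted p = 0.446 in edgeR), so it was not significant over all genes.

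Lgals3bp (chr11:118392747-118401959), a secreted glycoprotein that binds galectins, stood at 6.56 and 7.28 CPM in control C2C12 cells and at 10.4 and 10.7 CPM after depletion. Its log2 fold change was 0.60 ± 0.14 (adjusted p = 0.0124), with 0.65 and 0.55 in the pairs, just inside the 1.5-fold limit. With DESeq2 it did not pass (adjusted p = 0.390). With 1 pair alone, in fits that take the spread from primary myoblasts, neither call was kept. There the fold change was -0.62 for Irgm1 and 0.56 for Lgals3bp without replicate 1, and -0.64 and 0.66 without replicate 2. Without the replicate block neither gene passed. No gene passed in that fit, Septin9 included, so it cannot decide about these 2 calls. In primary myoblasts Lgals3bp stood at 3.44 and 6.06 CPM in control and at 3.13 and 9.87 CPM after depletion, so that its pairs went in opposite directions. H2-D1 passed the p-value threshold in C2C12 cells at a smaller size, with 89.2 and 86.9 CPM in control and 108 and 101 CPM after depletion (fold change 0.24 ± 0.07, adjusted p = 0.0373).

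Usp18, Ifit3, Rsad2, Cmpk2 and Ifi44 were not tested in C2C12 cells for low counts, and the other members did not pass. 12 of the 37 were higher in both pairs and 5 were lower in both, which compares with 31.3% and 30.4% of all genes tested. The pairs had a median log2 ratio of 0.15 and -0.02 over the members, beside 0.02 and -0.01 over all genes. Of the members of each role with the smallest unadjusted p-value, Zbp1, a sensor of Z-form nucleic acids, had the highest ratio: it had 5 and 14 reads (0.23 and 0.52 CPM) under the control siRNA and 14 and 28 reads (0.65 and 1.17 CPM) after depletion (1.28 ± 0.45, adjusted p = 0.0990). Stat2 stood at 31.3 and 27.7 CPM against 23.4 and 25.1 CPM after depletion (-0.29 ± 0.09, adjusted p = 0.0644). Ifit2, an RNA-binding protein, stood at 17.2 and 17.0 CPM in control and at 20.4 and 20.3 CPM after depletion (0.25 ± 0.10, adjusted p = 0.147). In CPM, the groups did not overlap for Zbp1, Stat2, Ifit2 and 7 further members, 10 of 37 (27.0%) in all, close to the 25.4% of all genes tested. Of other abundant members, fold changes were 0.03 ± 0.07 for B2m, -0.002 ± 0.069 for Eif2ak2, 0.03 ± 0.07 for Irf1, 0.03 ± 0.07 for Parp12 and -0.04 ± 0.07 for Ifi27. Isg15 and Ifit1, the usual readouts of an interferon response, went up in pair 1 and down in pair 2. Isg15 stood at 0.73 and 1.55 CPM in control and at 1.49 and 0.96 CPM after depletion, and Ifit1 had 6 and 13 reads in control and 15 and 7 reads after depletion.

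**Figure D3:**
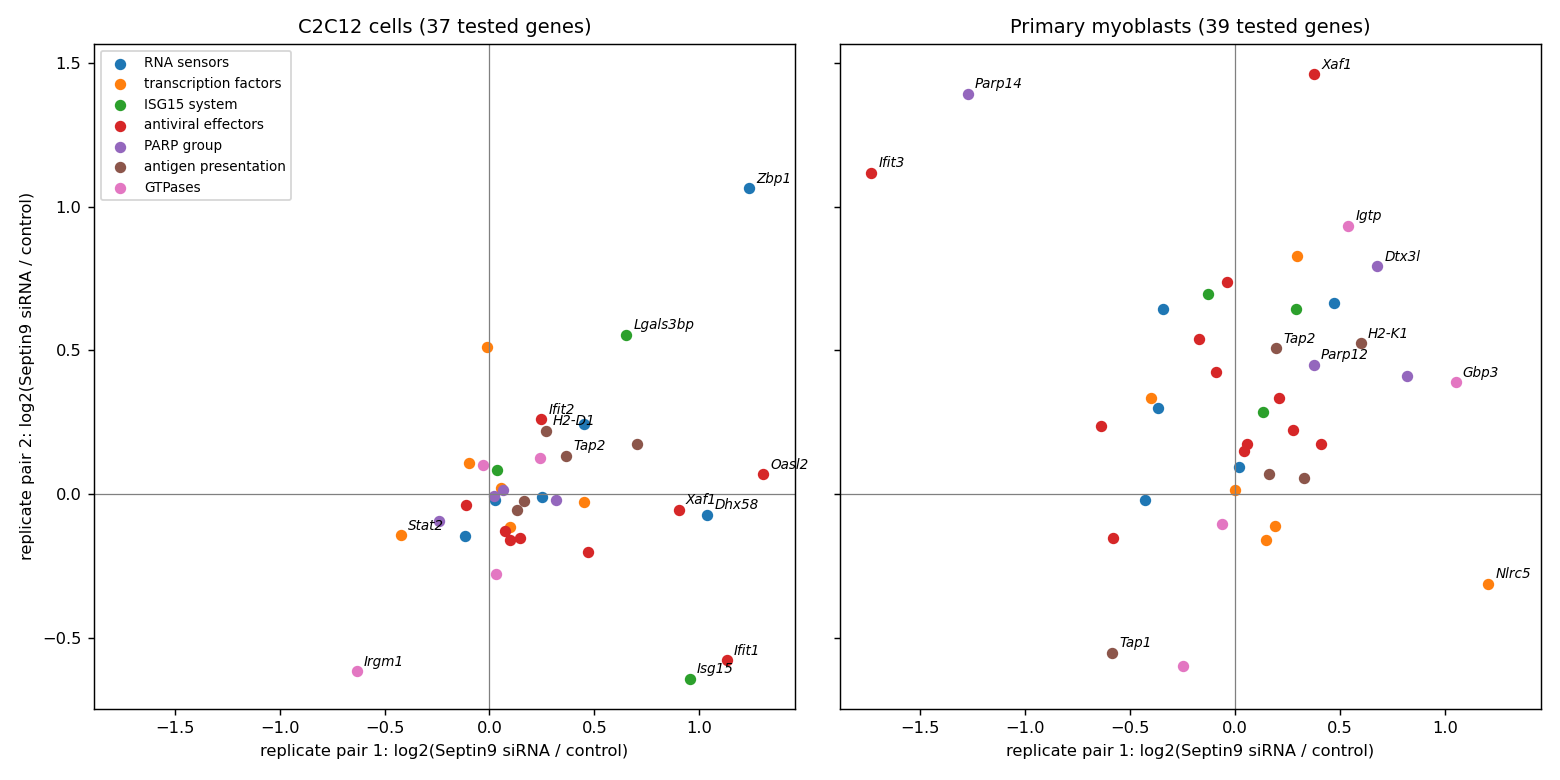
Log2 ratio of Septin9-deficient over control cells in replicate pair 1 (horizontal axis) and pair 2 (vertical axis) for the members tested in C2C12 cells (left) and primary myoblasts (right), coloured by role. In C2C12 cells Irgm1 lies at -0.63 and -0.62 and Lgals3bp at 0.65 and 0.55. In primary myoblasts H2-K1 lies at 0.60 and 0.53, while Ifit3 and Parp14 lie on opposite sides of 0 in the 2 pairs.

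In primary myoblasts, no member passed both thresholds after Septin9 depletion. Usp18, Ifi44 and Zbp1 were again not tested. Of the 39 members tested with edgeR, 0 were called and 7 had an unadjusted p-value under 0.05, beside 3.17% called and 16.7% with such a p-value among all 17117 genes. DESeq2 also called 0 of the 39, with 1 at an unadjusted p-value under 0.05, and its shares over all genes were not counted. H2-K1 (chr17:33996012-34000619), a class I heavy chain, was nearest: it stood at 31.6 and 23.9 CPM under the control siRNA and at 47.9 and 34.4 CPM after depletion. Its log2 fold change of 0.57 ± 0.11 (adjusted p = 0.00616) lay just under the 1.5-fold limit, with 0.60 and 0.53 in the pairs. The groups did not overlap, as for 11 of the 39 members and 27.8% of all genes. Tap1 stood at 10.3 and 8.70 CPM in control and at 6.81 and 5.92 CPM after depletion (-0.57 ± 0.17, adjusted p = 0.0687). In C2C12 cells Tap1 went from 1.91 and 1.91 CPM to 3.17 and 2.17 CPM.

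31 of the 39 members had a positive fold change in primary myoblasts, and their median was 0.30 beside 0.01 for all genes tested. By pairs, 20 members were higher in both and 5 were lower in both, which compares with 32.0% and 29.4% of all genes. The members' median was 0.13 in pair 1 and 0.33 in pair 2. Members pass the filter more readily where they are high, and they share their samples, so that this is a description and no test. In the same comparison the fibroblast markers summed to 8.64 and, after depletion, 7.03 CPM in replicate 1, and to 303 and 441 CPM in replicate 2, and the marker Thy1 passed (0.80 ± 0.22, adjusted p = 0.0431). Their part in the result was not tested.

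No role group held a call. All 4 genes of the PARP group had positive fold changes, from 0.41 to 0.78. Dtx3l stood at 1.12 and 1.45 CPM in control and at 1.84 and 2.58 CPM after depletion (0.78 ± 0.31, adjusted p = 0.188), and Parp12 at 4.30 and 5.91 CPM against 5.60 and 8.11 CPM (0.43 ± 0.19). Parp14 had 23 and 24 reads in control and 8 and 52 reads after depletion, so its pairs went in opposite directions. Igtp, a GTPase related to Irgm1, had 64 and 52 reads in control and 90 and 79 after depletion (0.75 ± 0.25, adjusted p = 0.105). Xaf1, which interferon induces and which promotes cell death, had 14 and 13 reads in control and 18 and 31 after depletion (1.06 ± 0.44, adjusted p = 0.210). Irf7, the factor that amplifies interferon production, stood at 1.12 and 1.71 CPM in control and at 1.39 and 3.10 CPM after depletion (0.64 ± 0.31, adjusted p = 0.319). Tlr3 stood at 1.20 and 1.90 CPM against 1.70 and 3.05 CPM (0.61 ± 0.30). Eif2ak2, Irf1 and B2m had fold changes of 0.06 ± 0.11, 0.04 ± 0.14 and 0.12 ± 0.11, while Trim25 and Ifi27 had 0.21 ± 0.11 and 0.28 ± 0.14.

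Which members passed in primary myoblasts depended on the experiment. With pair 2 alone, in a fit that takes the spread from C2C12 cells, Xaf1, Lgals3bp, Parp14 and Ifit3 passed, all higher after depletion, 4 of 40 members beside 5.11% of all genes. With pair 1 alone, H2-K1 passed as higher and Rnf213 as lower, 2 of 40 beside 1.95% of all genes. Ifit3 had 15 reads and, after depletion, 3 reads in replicate 1, and 62 and 107 in replicate 2. Rnf213 had 399 reads and, after depletion, 245 in replicate 1, and 654 and 601 in replicate 2. In the test of the difference of the Septin9 effect between cell types, 0 of 40 members and 0.00% of all 17918 genes passed, and 5 members had an unadjusted p-value under 0.05 in edgeR, as had 8.20% of all genes (H2-K1, Tap1, Irgm1, Dtx3l and Parp12). DESeq2 called 0 of the 40 as well.

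The 2 experiments on primary myoblasts differed in many of these genes. Over both siRNA conditions, 15 of 39 members were higher in replicate 2 and 0 were lower, beside 8.05% higher and 7.81% lower among all 17117 genes tested. Their median log2 fold change was 0.68, beside 0.01 for all genes. This comparison uses the same 4 samples as the Septin9 comparison, and each replicate is 1 experiment, so that it compares these experiments. Some members, such as Ifit1 and Gbp3, passed the filter on low counts through replicate 2 alone. Such members could only be called as higher, so the counts by direction are a description and no test. DESeq2 called 8 of the 15, which were Ifit1, Ifit3, Ifih1, Isg15, Rsad2, Irgm1, Lgals3bp and Rnf213. The share of all genes that DESeq2 called was not counted.

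Ifit1, Ifit3, Ifih1, Isg15 and Gbp3 had the largest fold changes of those that passed. Ifit1, which binds viral RNA ends, had 9 reads and, after depletion, 8 reads in replicate 1, and 139 and 146 in replicate 2. That was 0.39 and 0.36 CPM against 5.17 and 6.96 CPM, a log2 fold change of 4.02 ± 0.32 (adjusted p = 3.34e-08), and in C2C12 cells it stood between 0.27 and 0.70 CPM. Ifit3 stood at 0.64 and 0.13 CPM in replicate 1 and at 2.31 and 5.10 CPM in replicate 2 (3.15 ± 0.49, adjusted p = 7.66e-05). Ifih1, the cytosolic RNA sensor MDA5, stood at 1.33 and 1.03 CPM against 5.61 and 8.83 CPM (2.59 ± 0.28, adjusted p = 1.10e-06). Isg15, the ubiquitin-like modifier, stood at 0.64 and 0.81 CPM against 2.90 and 4.58 CPM (2.37 ± 0.32, adjusted p = 1.59e-05). Gbp3, a guanylate-binding protein, had 3 and 8 reads against 22 and 23 (2.02 ± 0.51, adjusted p = 0.00664), and it did not pass with DESeq2 (adjusted p = 0.235). In each of these 5 genes, which were picked for their size of change, both samples of replicate 2 were above both of replicate 1. The experiments did not overlap for 23 of the 39 members (59.0%), close to the 55.6% of all genes.

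The other 10 members that passed were Oasl2, Rsad2, Dhx58, Lgals3bp, Parp9, Irgm1, Rnf213, Irf7, Samd9l and Ifi27, at log2 fold changes from 0.68 to 1.89. Rsad2 stood at 1.29 and 1.25 CPM against 3.20 and 5.39 CPM, and Irgm1 at 5.67 and 5.42 CPM against 11.9 and 11.1 CPM. For Irgm1 the step between experiments was 1.06 under the control siRNA and 1.02 after depletion. By sample, 25 of the 39 members were higher in replicate 2 in both siRNA conditions and 7 were lower in both, beside 34.5% and 37.4% of all genes. The members' median step was 0.50 under the non-targeting siRNA and 0.71 under the Septin9 siRNA.

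Not every member followed. The antigen presentation genes had 0 of 5 calls: H2-K1 was lower in replicate 2 (-0.41 ± 0.11, adjusted p = 0.0108, under the 1.5-fold limit), H2-D1 was higher at a like size (0.53 ± 0.11), and Tap1 and Tap2 differed by -0.20 and -0.18. Irf1 (0.01 ± 0.14), Eif2ak2 (-0.04 ± 0.11) and Trim25 (-0.04 ± 0.11) did not pass. Ifit2, although a neighbour of Ifit1 and Ifit3 on chromosome 19, stood at 14.3 and 14.8 CPM in replicate 1 and at 12.9 and 14.5 CPM in replicate 2. The plot of both steps by gene shows these levels.

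**Figure D4:**
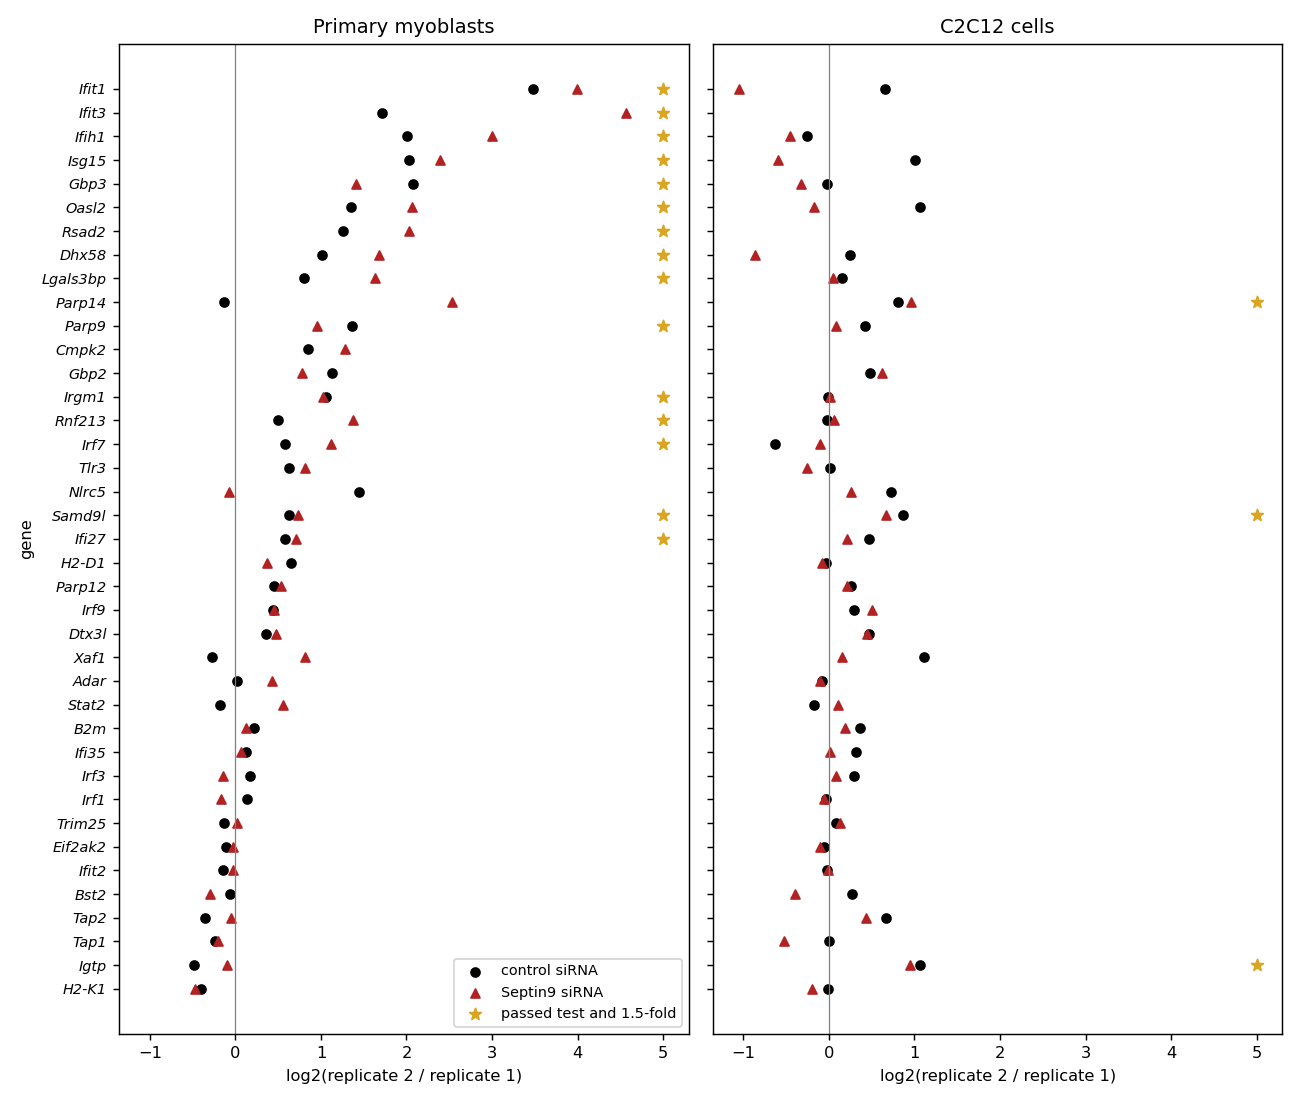
Log2 ratio of replicate 2 over replicate 1 for each tested member in control (black circles) and Septin9-deficient cells (red triangles) of primary myoblasts (left) and C2C12 cells (right), ordered by the fold change in primary myoblasts. Stars mark genes that passed the test with at least a 1.5-fold change: 15 in primary myoblasts, led by Ifit1, Ifit3, Ifih1 and Isg15, and Parp14, Samd9l and Igtp in C2C12 cells.

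Between the C2C12 experiments, 3 of 37 members passed, all higher in replicate 2: Samd9l (0.74 ± 0.13), Parp14 (0.87 ± 0.19) and Igtp (1.08 ± 0.39). With DESeq2 only Samd9l passed. That is 8.11% of the members beside 5.20% higher and 6.10% lower among all 15814 genes. There, Ifit1 and Isg15 were higher in replicate 2 under the control siRNA (by 0.65 and 1.00 on the log2 scale) and lower under the Septin9 siRNA (by -1.06 and -0.59). Whether the experiments differed by more in primary myoblasts than in C2C12 cells was not tested.

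Cell markers moved with the difference between the primary myoblast experiments. The fibroblast markers Col1a1 (6.83 and 4.84 CPM in replicate 1 against 249 and 378 CPM in replicate 2), Pdgfra (1.03 and 0.90 against 31.7 and 32.1 CPM), Dcn and Thy1 all passed as higher, 4 of 4 tested of the 6 listed, with fold changes from 3.96 to 5.74. Dpt and Lum, also on that list, stayed at or below 0.48 CPM in primary myoblasts. The endothelial sum was 2.53 and 2.64 CPM in replicate 1 and 4.09 and 4.77 CPM in replicate 2, in which Cdh5 passed as higher. Of the leukocyte markers, Itgam was lower in replicate 2 (-1.25 ± 0.43, adjusted p = 0.0419) and none was higher by the test. Of the 8 myoblast markers, 4 passed as lower in replicate 2 (Myog, Cdh15, Myf5 and Itga7) and 0 as higher. Myog, a factor of differentiating myoblasts, stood at 1019.9 and 1549.6 CPM in replicate 1 and at 401 and 908 CPM in replicate 2. In C2C12 cells, although they were collected in differentiation medium, Myog stood at 5.19 to 63.7 CPM. In C2C12 cells Col1a1 stood at 97.6 to 127 CPM, Pdgfra at 9.42 to 17.1 CPM, Dcn at 0.50 to 2.72 CPM and Dpt at 0.23 to 0.74 CPM. Thy1 had 0 reads there in every sample, and Lum had 0 or 1. The part of these cell markers in the result was not tested.

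**Figure D5:**
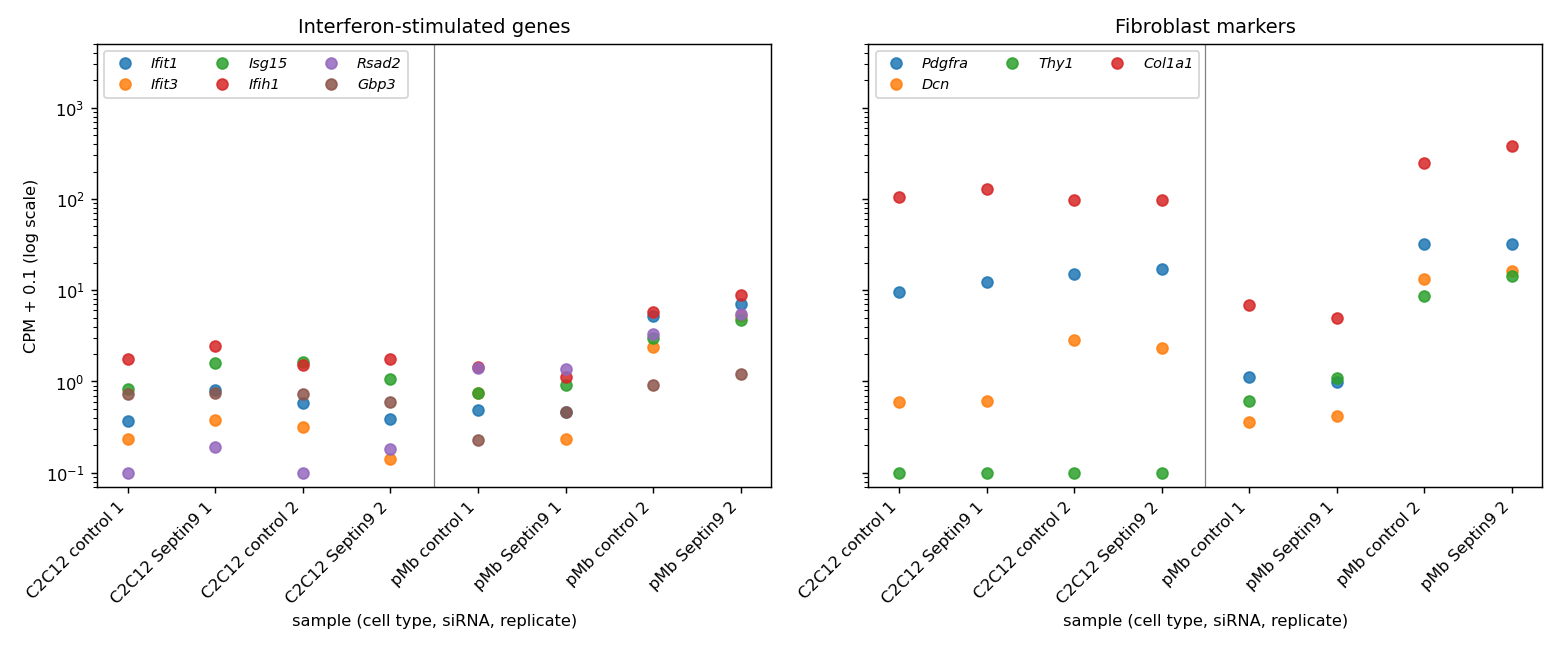
CPM + 0.1 on a log axis in each of the 8 samples for 6 interferon-stimulated genes (left) and the 4 tested fibroblast markers (right). The 6 genes were picked from the members that passed as higher in replicate 2 of the primary myoblasts, and members that did not follow are not shown. In primary myoblasts both sets are higher in replicate 2 than in replicate 1, which for the left set follows from how it was picked. In C2C12 cells Col1a1 lies at 97.6 to 127 CPM, while Thy1 had 0 reads.

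Interferon-stimulated response elements in promoters are built from GAAA repeats, so the promoters of the members were searched on both strands for a pair of GAAA separated by any 2 bases. RefSeq promoter windows on GRCm38.p6, from 250 bases before to 50 after a gene's start, were at hand for 34 of the 42 members, and 13 of them held the motif. It was found in 3.99% of 27025 genes. The members were chosen as interferon-stimulated genes, so a higher share among them may follow from that choice. Of the members higher in replicate 2 of the primary myoblasts, 7 of the 12 with a window held it, and so did 6 of the 22 others. That split uses calls from these same data, so it is a description and no test. Overlapping matches were counted as found, and a match is a description of letters. The stretches around the match are shown for the 5 such members in which it lay before the annotated gene, with the matched bases in capitals, 5′ to 3′ along the gene's strand.
Ifit1: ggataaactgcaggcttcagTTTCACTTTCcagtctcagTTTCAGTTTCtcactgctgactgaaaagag
Isg15: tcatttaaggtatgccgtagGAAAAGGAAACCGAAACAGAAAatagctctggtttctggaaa
Rsad2: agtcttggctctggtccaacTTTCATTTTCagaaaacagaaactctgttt
Gbp3: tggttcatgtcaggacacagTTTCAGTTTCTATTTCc
Irgm1: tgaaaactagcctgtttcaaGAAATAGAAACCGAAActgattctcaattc

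They lie at chr19:34640765-34640833 on the plus strand (Ifit1), chr4:156200855-156200916 on the minus strand (Isg15), chr12:26456543-26456592 on the minus strand (Rsad2), chr3:142559979-142560015 on the plus strand (Gbp3) and chr11:48871421-48871470 on the minus strand (Irgm1). Ifit1 holds 2 separate matches on the opposite strand, and in Isg15, Gbp3 and Irgm1 the matches run into each other. The matches of Ifih1 and Ifit3 lie inside the annotated gene and are not shown. Irgm1 is the one of these 5 genes that also changed after Septin9 depletion in C2C12 cells, while Ifit1, Isg15, Rsad2 and Gbp3 were at or under 1.55 CPM there.

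The genes around this pathway were described from lists of 21 interferons, 15 receptor and signalling genes, 17 sensing and adaptor genes and 53 other interferon-stimulated genes. None of the 21 interferon genes passed the filter in any comparison, and together they had 70 reads over the 8 samples. Ifnz held most of these, with 16 reads at most in a sample. The signalling chain was present in both cell types: Ifnar1, a subunit of the type I receptor, stood at 51.9 to 106 CPM, Jak1 at 92.2 to 200 CPM and Mavs, the adaptor of the cytosolic RNA sensors, at 27.6 to 35.2 CPM. Ptpn11, Stat3 and Jak2 were the other most abundant signalling genes, Dicer1, Traf3, Tarbp2 and Tbk1 the other most abundant sensing genes, and Ifitm3, Ifitm2, Pml, Tapbp and Samhd1 the most abundant of the other interferon-stimulated genes.

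After Septin9 depletion, 0 of the 60 pathway genes tested were called in C2C12 cells by edgeR, with 11 at an unadjusted p-value under 0.05 beside 18.7% of all genes (DESeq2 was not counted over this list). In primary myoblasts 1 of 64 was called: Gbp6, a guanylate-binding protein, stood at 9.45 and 3.90 CPM in control and 11.8 and 9.64 CPM after depletion (0.77 ± 0.21, adjusted p = 0.0391). In C2C12 cells Gbp6 stood at 0 to 0.14 CPM. Its call was lost with other scalings, as with library size alone (0.74, adjusted p = 0.154).

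Between the primary myoblast experiments, 23 of 64 pathway genes passed, 21 higher and 2 lower in replicate 2, beside 8.05% higher and 7.81% lower among all genes. Of the 15 receptor and signalling genes, 5 were higher, among them Jak2 and the feedback inhibitors Socs1 and Socs3. Of the 14 sensing genes tested, 3 were higher: Ddx58, which encodes RIG-I and stood at 3.39 and 2.78 CPM against 4.91 and 7.58 CPM, Ikbke and Cgas. Of the 35 other interferon-stimulated genes tested, 13 were higher. The chemokine Cxcl10 stood at 0.04 and 0.13 CPM against 3.24 and 4.96 CPM, and Oasl1 at 0.30 and 0.36 CPM against 3.64 and 4.25 CPM. Both passed the filter through replicate 2 alone and could only be called as higher, so the counts by direction are a description. Gbp4 and Gbp6 were lower, with Gbp4 at 18.9 and 21.1 CPM in replicate 1 and at 6.54 and 10.9 CPM in replicate 2. In the controls, 6 of 63 pathway genes were higher in primary myoblasts than in C2C12 cells and 20 were lower, with Jak1, Tyk2 and Ddx58 among the lower ones (17.5% of all genes were higher and 15.8% lower).

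7 members are listed with further copies: Irgm1, H2-K1, H2-D1, Tap1 and Tap2 with 3 each, and Igtp and Trim25 with 1 each. Several copies repeat the values of the main entry, but others differ. 2 of the copies of H2-K1 had 139 to 210 reads in every C2C12 sample and 0 in every primary myoblast sample, at least 58.2-fold higher in control C2C12 cells, while the main entry differed by -1.51 on the log2 scale. A copy of Tap2 was lower in control primary myoblasts by a fold change of -2.27 ± 0.37, whereas the main entry differed by -0.36. How reads were shared among copies is not given in the sources used here, and values of these 7 genes are uncertain. In addition, 11 members share exonic bases with another listed gene, such as Adar with Chrnb2, Tap1 with Psmb9 and Igtp with Irgm2.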

How the data were processed

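RNA of 8 samples was analysed, with 2 replicates in each of 4 groups named by the sample labels. Reads were mapped in pairs to GRCm38.p6 and counted per gene by the authors, whose raw counts were deposited unscaled. Per the submitters' processing notes, the tools were STAR 2.7.2, featureCounts 2.0.1 and DESeq2 1.40.1. A normalized signal per cell type, also deposited, was made by the authors with ComBat-Seq and DESeq2 size factors. All of its values (100%) were whole multiples of the smallest value of the sample within a tolerance of 0.01, so whole batch-corrected counts were recovered for an alternative test. The annotation named in the study's methods is a Gencode release, whereas the gene names are RefSeq symbols. The raw counts held 16 broken lines, which were left out, and 2379 of 42391 entries are further copies of a listed gene. No column of values was left unassigned (0).

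The members and all lists were chosen with earlier results of these data known. Totals were 20898611 to 27223414 reads per sample, and precision rests on 2 replicates per group. With the replicate number as a block, p-values of the Septin9, replicate and difference tests measure how far the siRNA change differed between pairs. They do not measure the spread between experiments. Those of the control comparison measure the spread between the 2 replicates of each cell type.

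Septin9-deficient and control cells were compared within each cell type in R 4.3.3 with edgeR 4.0.16 (filterByExpr, TMM, quasi-likelihood test), blocking on the replicate number, because the study's methods name independent experiments and remove their batch effect. Samples of one number deviated together from their group means (correlation over genes 0.678 for the 2 pairs of C2C12 cells and 0.819 for those of primary myoblasts). The 4 controls were compared without a block, replicate 2 with replicate 1 in the same fit as Septin9, and the difference of the Septin9 effect in a fit of all 8 samples. Benjamini-Hochberg adjustment covered all genes tested, and a gene passed with an adjusted p-value under 0.05 and at least a 1.5-fold change. The SE is the absolute fold change over the root of F. CPM used TMM library sizes over all 8 samples, ratios of single samples log2 CPM with a prior count of 2, and RPKM the union of exons in GENCODE release M21. Alternatives were RLE size factors, unscaled library sizes, keeping every gene or only those with 10 or more counts throughout, no fold threshold, DESeq2 1.42.0 on raw or batch-corrected counts, no replicate block (or a block for the controls), all 8 samples in one fit and each replicate left out. Leaving out copy entries was added after the data were examined.

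Members named with full statistics were those that passed in a Septin9 comparison, the most abundant and that with the smallest p-value of each role, and up to 5 per direction in the other comparisons. Of the pathway lists, genes that passed after Septin9 depletion and the 5 most abundant were named, and others were chosen after their values were seen. In simulated data with 200 changed genes, 95.5% to 100% were recovered. Recovery of genes with few reads or small fold changes, like many of the members, was not tested. Intervals and floors of counts (3 reads) cover counting error only.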

Additional observations from a re-analysis of the deposited data

How the results depend on the processing

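Counts of members that passed are given per alternative where they moved by over 1.5 times. Except where given, the share of all genes that passed was not counted per alternative. After Septin9 depletion in C2C12 cells 2 members passed, 1 without a filter, with DESeq2 or with all 8 samples in one fit, and 0 without the replicate block, a fit in which 0 of all genes passed and Septin9 itself was lost. Neither call was kept with a pair left out, with Irgm1 at -0.62 without replicate 1 and -0.64 without replicate 2. Those fits take the spread from primary myoblasts. In primary myoblasts 0 members passed, as without the replicate block, 1 without a filter (Igtp) and 1 without a fold threshold (H2-K1), and 2 to 4 when a pair was left out. In these fits the spread comes from the other cell type, and the lone pair is assumed to vary like it. Between the controls 19 members passed, and fewer with any 1 control sample left out. Most calls were lost with either C2C12 control left out, and most were kept with either primary myoblast control left out. Ifih1 and Ifit1 were added without primary myoblast replicate 1. In these fits the lone sample is assumed to vary like the others. With a replicate block 17 passed. Between replicates, 8 passed in C2C12 cells without a fold threshold and 1 with DESeq2, and 8 in primary myoblasts with DESeq2. The difference of the Septin9 effect called 1 member without a filter (Tap1) and 0 to 2 when a pair was left out (Stat2 and Parp14 without pMb replicate 1). Directions turned only for small fold changes: Eif2ak2 in C2C12 cells was 0.020 with library size alone, 0.0050 without copy entries, 0.0035 with all 8 samples and -0.019 to 0.026 when a pair was left out. With a pair left out, B2m ranged from -0.053 to 0.13, Ifi27 from -0.16 to 0.098, Parp9 from -0.020 to 0.32, and Irf1 in primary myoblasts from -0.10 to 0.19. The cause of these changes was not tested. Over the genes named with full statistics, each in its comparison and under the alternatives, 431 values kept their side, 38 lost the call, 3 gained it and 8 turned. Changes of other members and comparisons are not in this tally. No scaling moved the median of all genes by over 0.1. With 2 replicates, low counts limit what could be detected, as for Usp18 and Ifi44 and, in C2C12 cells, Ifit3, Rsad2 and Cmpk2, which were not tested there.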
